A study of Mus musculus with 20 samples.

Results

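The transcribed body of *Btrc* was followed across capture Hi-C (cHi-C) maps of mouse E11.5 limb buds, from behind its promoter to its 3′ end, for its contacts with DNA outside its own domain. The members were chosen by position on chromosome 19 of mm9. One bin of each pair lay in chr19:45445001-45610000, which is 33 bins of 5 kb or 165 kb, and the other bin lay in the captured interval chr19:44440001-46400000 outside the *Lbx1* TAD (chr19:45290001-45615000). This gave 10791 of the 77028 bin pairs of each map. *Btrc* is annotated at chr19:45438224-45607831 on the plus strand, so its promoter (chr19:45435001-45445000) was left out and the body runs from the centromeric to the telomeric side. The annotation also places *Gm6807*, a predicted gene on the minus strand, at chr19:45524798-45525685 inside the body. No measured value entered the rule for members, although earlier results of these data were known when it was chosen.

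*Btrc* encodes the substrate-binding F-box protein of an SCF ubiquitin ligase, which marks phosphorylated proteins such as β-catenin for degradation. It shares a topologically associating domain (TAD), a stretch whose parts contact each other more than their surroundings, with *Lbx1*, a homeobox gene of migrating limb muscle precursors. The neighbouring TAD on the telomeric side holds *Fbxw4*, another F-box gene, and *Fgf8*, which encodes the growth factor of the apical ectodermal ridge (AER) that keeps the limb bud growing out. Known AER enhancers of *Fgf8* lie in the introns of *Fbxw4*. In Hi-C, contact falls with distance along the DNA, and a boundary between TADs lowers it further, so a rearrangement can alter the contacts of a gene by moving it, by moving its partners or by removing the boundary from between them.

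The 20 libraries came from pooled fore- and hindlimb buds and were given as 6 merged maps, 1 per genotype. Wild-type (strain label c57bl6.J), homozygous *Dup*, homozygous *Inv1* and homozygous *Inv2* each merged 4 libraries, of which 3 were biological replicates and 1 was technical. Heterozygous *Inv1* merged 3 libraries and heterozygous *Dup* was a single library, which was assigned from its title, since its genotype label names an inversion. The strain label of all mutants is G4 ESC, a hybrid embryonic stem cell line of 129sv and C57Bl6, whereas the study also describes *Dup* as made in a C57Bl6 background and its lines as crossed to C57BL/6 animals. Where the backgrounds differ from the wild-type, allele and background cannot be told apart. With 1 map per genotype there was no replicate-level test, and the intervals below are 95% counting intervals that do not cover the spread between limb buds. The assay reads DNA contacts in a mixture of all limb bud cells and no transcripts, so tissue markers could not be checked and contacts of the thin AER could not be separated from those of mesenchyme.

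The rearrangements were cut with CRISPR/Cas9 at sites that fix which partners moved relative to the *Btrc* body. The sites are shown because the gradients below turn on their order. Each is written 5′ to 3′ as a protospacer in lower case with its PAM in capitals, matched exactly to mm9. In *Dup*, a tandem duplication, both sites are intergenic and on the minus strand, centromeric at chr19:45251631-45251650 and telomeric at chr19:45792723-45792742, so the whole body and nearly all of the *Fgf8* TAD, but not *Fgf8*, are present in a second copy. *Inv2* used the same telomeric site with an intergenic one at chr19:45332272-45332291 (plus strand), so the body itself was turned around and its promoter faced *Fgf8*. *Inv1* was cut at an intergenic site at chr19:45611034-45611053 and in an intron of *Fbxw4* at chr19:45734085-45734104, both on the plus strand. The *Btrc* body stayed in place in *Inv1* and the boundary, *Poll*, *Dpcd* and most of *Fbxw4* were turned around next to its 3′ end.
*Dup* centromeric: cccaggaatcgccgatgacaGGG
*Dup* and *Inv2* telomeric: ttaaatttctccaagataagAGG
*Inv2* centromeric: ctgacatttagctgtgatcgGGG
*Inv1* centromeric: ggcctcaatacacctccatgGGG
*Inv1* telomeric: ggtgacaccagtattcctcgAGG

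In the reference order, the start of *Fgf8* lay 372 kb from the start of the body and 207 kb from its end. *Inv2* exchanged the ends, with 137 kb to the body start and 302 kb to the body end. *Inv1* left these distances as they were. In *Dup*, the single *Fgf8* lay at 372 kb and at 913 kb from the starts of the body copies.

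The maps held 3350758 (heterozygous *Dup*) to 13101700 (homozygous *Dup*) read pairs, and 4.55% (wild-type) to 6.63% (homozygous *Dup*) of these fell in member bin pairs. Of the 10791 members, 10692 had values in the wild-type and inversion maps and 10626 in the *Dup* maps. A median member held 19 read pairs in the wild-type, 34 to 36 in the homozygous mutants, 21 in heterozygous *Inv1* and 11 in heterozygous *Dup*, and between 0 and 70 members of a map held none. Values are therefore given over rectangles of many bin pairs. Each junction was checked in every map. The last body bin joined the bin of the telomeric *Inv1* cut at 9.14 times the mean of its distance in homozygous *Inv1*, at 4.84 times in heterozygous *Inv1* and at 0.79 times in the wild-type. Contact across the *Dup* junction was 24.7 times the mean of its distance in homozygous *Dup* (314 read pairs), against 2.93 in the wild-type (25 read pairs). In the library assigned to heterozygous *Dup* it was 21.4 times, from only 43 read pairs. Across the *Inv2* junction it was 61.1 times in *Inv2* against 2.11 in the wild-type.

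In the wild-type, contact of the *Btrc* body with the *Fgf8* TAD (chr19:45650001-45820000) rose along the gene towards its 3′ end. The mean contact per bin pair, scaled to a map total of 1000000, was 7.80 in the 55 kb behind the promoter (the first 11 bins, called the promoter-side stretch) and 12.7 in the last 55 kb (the last 11 bins, called the 3′-end stretch). Their ratio, the gradient, was 1.63 (1.60 to 1.67), with 35892 and 21014 read pairs behind it. The decay of contact with distance alone gave 1.77. Across the 33 bins, contact ran from 6.97 in bin 3 through a median of 9.89 to 15.7 in bin 33 and rose at 20 of 32 steps from bin to bin. With the centromeric flank, whose gradient was only 1.07, contact rose at 16 of 32 steps. The count of steps therefore cannot show how evenly the rise was spread along the body.

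Divided by the mean that bin pairs of this distance had in the map (observed over expected, O/E), contact with the *Fgf8* TAD lay below 1 in every body bin, from 0.66 in bin 31 to 0.92 in bin 23. It differed little along the body, at 0.80 in the promoter-side stretch and 0.77 in the 3′-end stretch, a gradient of 0.967 (0.948 to 0.985). The rise towards the 3′ end was therefore no steeper than distance gives. For comparison, the segment between the *Lbx1* region and the *Btrc* promoter (chr19:45335001-45435000), which lies farther away, had an O/E of 1.13 with the same TAD, and the promoter 0.94 (0.90 to 0.98). All 3 intervals lay apart, so the body stood lowest of the parts of its TAD that were compared.

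**Figure D1:**
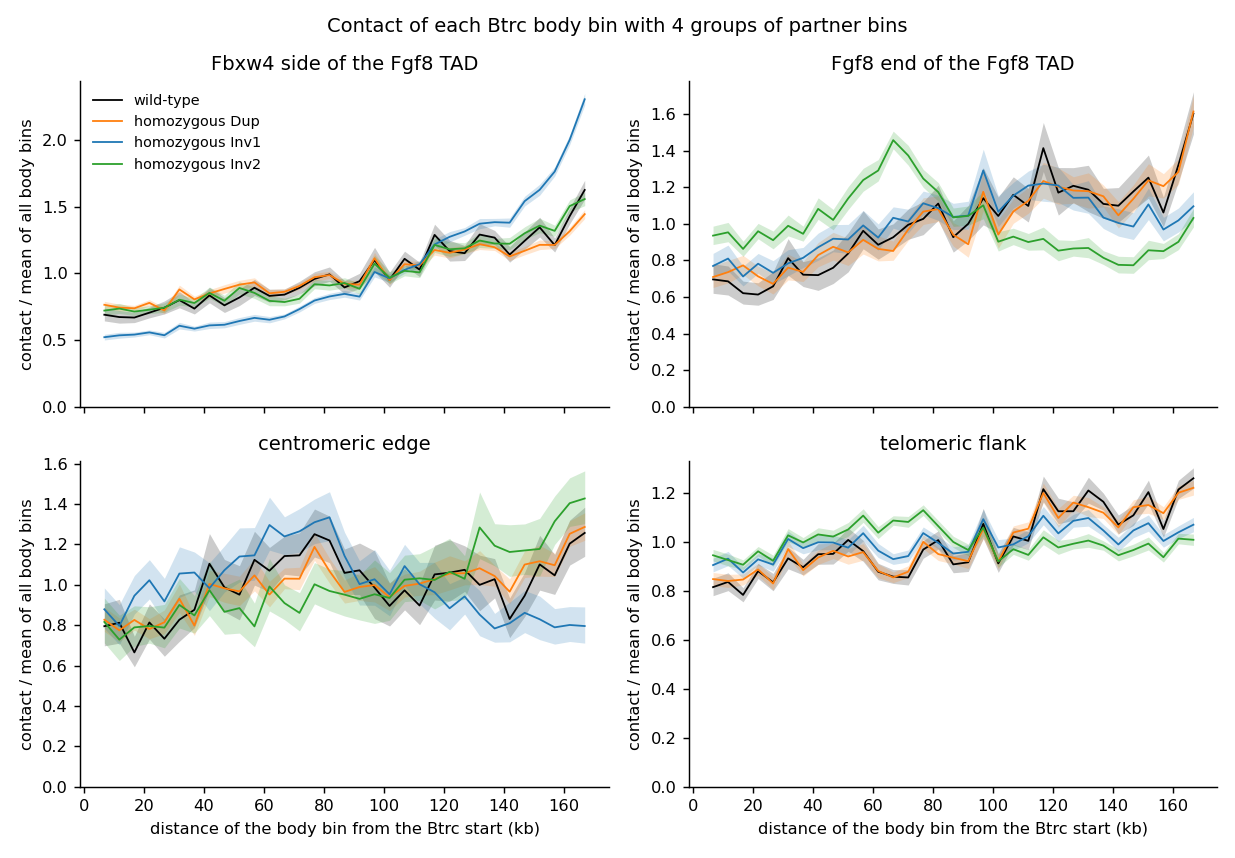
Contact of each of the 33 *Btrc* body bins with the *Fbxw4* side of the *Fgf8* TAD, the *Fgf8* end, the centromeric edge and the telomeric flank (4 panels), divided by the mean of the 33 bins in the same map, against the distance from the *Btrc* start in kb. Lines are the wild-type and the 3 homozygous mutants and shading is the 95% counting interval. Homozygous *Inv1* rises most steeply with the *Fbxw4* side (3′-end over promoter-side stretch 2.68 against 1.70 in the wild-type), and *Inv2* with the *Fgf8* end peaks before the middle of the body and is lower at the 3′ end (0.861 against 1.68).

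The *Fgf8* TAD was not met evenly. Its *Fbxw4* side (chr19:45650001-45730000), where most of the AER enhancers lie, had a wild-type O/E of 0.68 with the body, while the last 25 kb with *Fgf8* (chr19:45795001-45820000, called the *Fgf8* end) reached 1.08 although they lie farther off. Contact with the *Fgf8* end also rose more than distance gives, by 1.68 (1.61 to 1.76) from the promoter-side to the 3′-end stretch against 1.43 from distance, and its O/E went from 0.96 to 1.13. With the *Fbxw4* side, the rise was 1.70 against 1.93 from distance. The body thus met the far end of the neighbouring TAD near or above the mean of its distance and the nearer side below it.

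The partner that stood out most in the wild-type lay on the other side, in the 35 kb between the centromeric *Dup* cut and the *Lbx1* TAD (chr19:45255001-45290000, called the centromeric edge). Its O/E with the body was 1.89 (1.86 to 1.93), and 6 of its bins were the 6 partner bins with the highest O/E, led by chr19:45285001-45290000 at 2.15. Contact with this edge did not fall with distance along the body. Distance alone gave a gradient of 0.66, and the measured one was 1.20 (1.14 to 1.26). In O/E, the edge rose from 1.01 in bin 1 and 0.89 in bin 3 to 2.28 in bin 15, was 1.81 in bin 20 and climbed again to 2.99 in bin 33. The single bin pair with the highest O/E joined the last body bin to chr19:45285001-45290000 (3.56, 157 read pairs). The latter adjoins the centromeric end of the *Lbx1* TAD and the former lies a bin away from its telomeric end. The promoter had an O/E of 0.93 (0.84 to 1.04) with the same edge and the upstream segment 0.75, below the promoter-side stretch of the body at 1.32 (1.27 to 1.37).

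Farther out the gradients were weaker. In windows of 85 kb, the O/E of the body fell from 1.41 in the window next to the *Lbx1* TAD to 0.487 at chr19:44950001-45035000 and returned to 0.82 at the centromeric end of the map. Telomeric windows lay between 0.75 and 0.99. With the whole centromeric flank (chr19:44440001-45290000) the gradient was 1.07 (distance alone 0.73), and with the telomeric flank (chr19:45820001-46400000) it was 1.29 (distance alone 1.38). In the 35 kb between the TADs, which hold the shared start bin of *Poll* and *Dpcd*, it was 2.40 against 3.04.

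**Figure D2:**
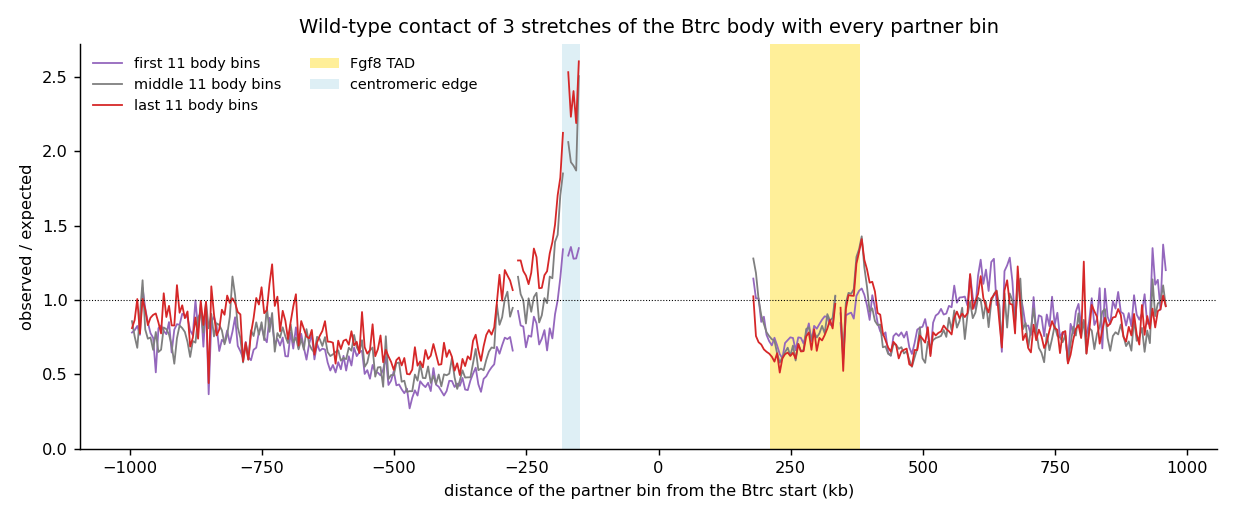
Wild-type contact of the promoter-side, middle and 3′-end stretches of the *Btrc* body (11 bins each) with every partner bin outside the *Lbx1* TAD, as observed over expected, against the distance of the partner from the *Btrc* start in kb. The *Fgf8* TAD is shaded in gold and the centromeric edge in light blue, and the gap is the *Lbx1* TAD. At the centromeric edge the stretches separate (1.32, 2.02 and 2.35), whereas over the whole *Fgf8* TAD they differ less (0.80, 0.81 and 0.77), with partner bins of the TAD from 0.58 to 1.24 for the whole body. In its last bin the stretches were at 1.06, 1.34 and 1.32.

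Of the contacts that left the *Lbx1* TAD, the *Fgf8* TAD took 23.2% in the wild-type (Wilson interval 23.0 to 23.3), the interval between the TADs 11.3%, the centromeric flank 37.5% and the telomeric flank 28.0%. Towards the 3′ end the balance moved from the centromeric flank (41.8% of the promoter-side stretch, 33.0% of the 3′-end stretch) to the *Fgf8* TAD (20.8% and 24.9%) and the interval between the TADs (8.10% and 14.3%).

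In homozygous *Inv1*, contact of the body with the *Fgf8* TAD was higher than in the wild-type along the whole gene, most of all at the 3′ end. O/E over the body was 1.29 in *Inv1* and 0.80 in the wild-type. On jointly scaled maps the ratio was 1.83 (1.82 to 1.85), where distance in the inverted order alone gave 1.30. The stretches stood at 1.52 on the promoter side, 1.69 in the middle and 2.14 at the 3′ end, against 1.14, 1.17 and 1.48 from distance. All 33 body bins were more than 25% higher, against 16% of all bins outside the *Fgf8* TAD. At a fold of 1.5, 28 of 33 passed, but no share over all bins was taken at that fold. The gradient steepened to 2.26 (2.23 to 2.28) from 1.63, close to the 2.30 that distance gives for the inverted order.

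The rise was larger on the *Fbxw4* side, the part that the inversion carried to the 3′ end of *Btrc*. The ratio there was 2.35 (2.33 to 2.38) for the body and grew from 1.80 on the promoter side through 2.11 to 2.86 in the 3′-end stretch, each above the distance values of 1.20, 1.23 and 1.57. Single bins ran from 1.68 (1.56 to 1.82) in bin 5 to 3.42 (3.26 to 3.59) in bin 31. The 7 partner bins with the highest O/E all lay between chr19:45700001 and 45735000, led by chr19:45730001-45735000 at 2.38, the bin that lies farthest from *Btrc* among them in the reference order. Past the inverted interval, on the *Fgf8* side of the TAD (chr19:45735001-45820000), the ratio was 1.12 (1.10 to 1.13) for the body where distance gave 1. It was 1.19 in the promoter-side and in the middle stretch and 1.01 in the 3′-end stretch.

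With the *Fgf8* end itself, *Inv1* showed the opposite trend along the gene. The promoter-side stretch was at 1.05 (1.01 to 1.10) and the 3′-end stretch at 0.861 (0.83 to 0.89), and the last body bin was lowest at 0.67 (0.61 to 0.74). The gradient was 1.31, below the 1.68 of the wild-type, and the distances were not altered. Over the whole body the ratio was 0.963 (0.943 to 0.984), but it was 1.03 when both maps were scaled only to the same total and 1.02 in read pairs without bin factors, so no direction can be given for the body as a whole. The 3′-end stretch stayed below 1 under both (0.906 and 0.878).

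**Figure D3:**
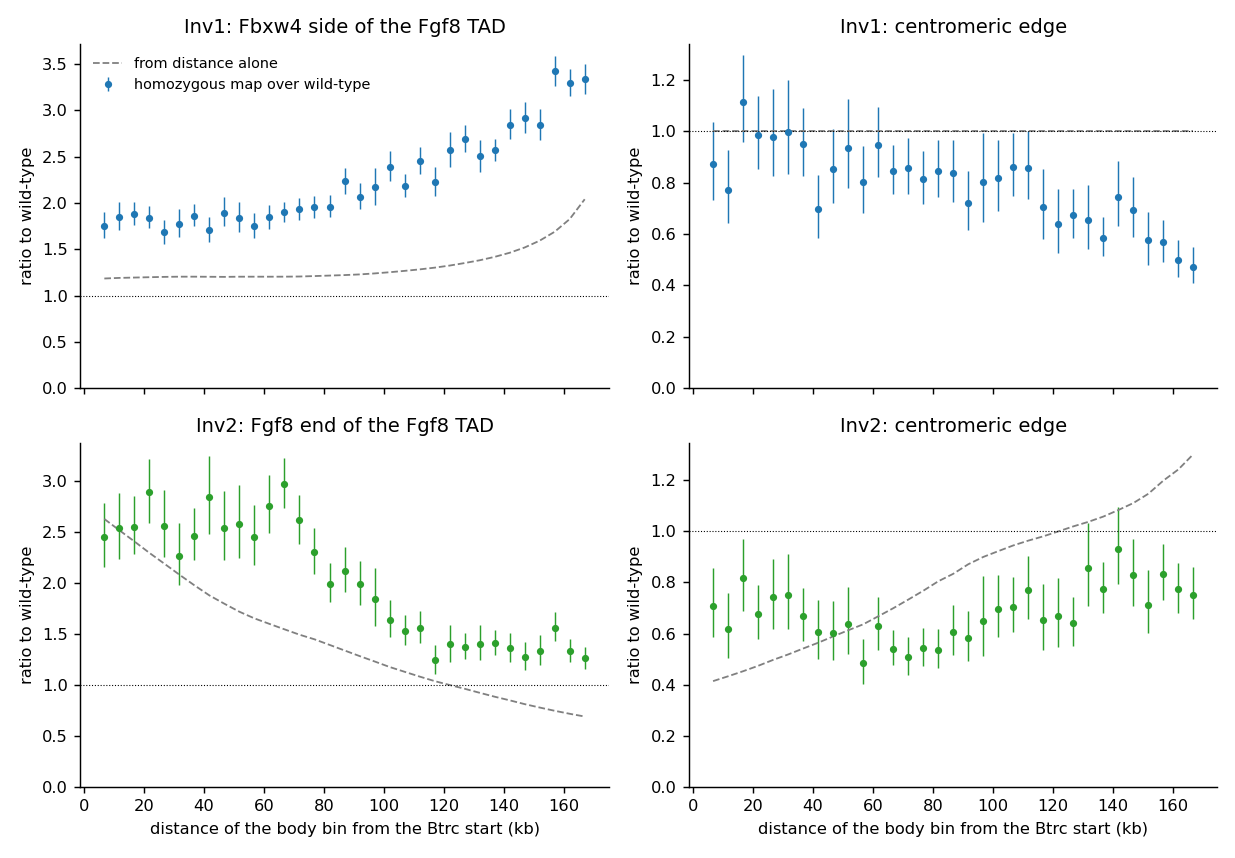
Ratio of mutant to wild-type contact for each of the 33 body bins against the distance from the *Btrc* start in kb, for homozygous *Inv1* with the *Fbxw4* side and with the centromeric edge and for *Inv2* with the *Fgf8* end and with the centromeric edge. Points carry 95% counting intervals and the dashed line is the ratio from distance alone. In *Inv1*, bins at the 3′ end are highest for the *Fbxw4* side (up to 3.42) and lowest for the centromeric edge (down to 0.47), and in *Inv2* the *Fgf8* end peaks in the middle of the gene (2.97).

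The centromeric edge, the partner region with the highest O/E at the 3′ end in the wild-type, was lower in *Inv1* although its distance to the body was the same. The ratio was 0.773 (0.752 to 0.795) over the body, at 0.892 on the promoter side, 0.837 in the middle and 0.612 (0.582 to 0.643) at the 3′ end. The last bin was lowest at 0.47 (0.41 to 0.55), and 1 of 33 bins lay above 1. The gradient turned from 1.20 to 0.845 (0.805 to 0.888). KR normalization holds the total of each bin constant, and its part in the fall was not tested. In read pairs without bin factors the ratio was 0.735 over the body and 0.577 at the 3′ end. Scaling to the total only gave 0.823 and 0.661. The centromeric flank as a whole was at 0.858, and at 0.999 under scaling to the total only. The telomeric flank was at 1.01 (1.20 under scaling to the total only). The interval between the TADs, which the inversion moved away, was at 0.771 where distance gave 0.50.

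In *Inv2*, the body itself was turned and the slope of its contact with the *Fgf8* end turned with it. Contact with the *Fgf8* end was at an O/E of 2.32 in the promoter-side stretch and 1.61 in the 3′-end stretch, against 0.96 and 1.13 in the wild-type. Relative to the wild-type, the ratio was 1.90 (1.87 to 1.94) for the body, with 2.55 on the promoter side, 2.09 in the middle and 1.35 at the 3′ end, where distance gave 2.08, 1.33 and 0.85. The gradient was 0.861 (0.841 to 0.882) against 1.68, and distance alone gave 0.58. The slope was therefore shallower than distance gives, and the 3′-end stretch, now farther from *Fgf8* than in the wild-type, still contacted it more than in the wild-type.

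The *Inv2* profile did not peak at the end of the body nearest to *Fgf8*. Contact with the *Fgf8* end was at an O/E of 2.32 in bin 1, reached 3.22 in bin 13 and 3.06 in bin 14, and was 1.73 in bin 33. The ratio to the wild-type was likewise highest in bin 13 at 2.97 (2.74 to 3.23), where distance gave 1.55. In bin 1 it was 2.46 (2.16 to 2.79), with an interval that overlaps that of bin 13, where distance gave 2.63. The bin pair with the highest O/E joined bin 14 to chr19:45820001-45825000 (4.15, 816 read pairs), the bin with the start of *Npm3*. The bin of *Gm6807* (bin 17) lay on the falling side of this peak, at 2.30 and a ratio of 2.12 (1.91 to 2.35).

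For the rest of the *Fgf8* TAD, *Inv2* moved little. The *Fbxw4* side, which turned together with the body, was at 1.12 (1.11 to 1.13) where distance gave 1, with 1.16, 1.08 and 1.13 in the 3 stretches, and its gradient was 1.66 against 1.70. Over the whole *Fgf8* TAD the ratio was 1.255 (1.24 to 1.27), at 1.35, 1.28 and 1.18 along the body, and 17 of 33 bins were more than 25% higher, against 25.3% of all bins outside the TAD. None passed 1.5.

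Both flanks stayed in place in *Inv2*, and turning the body altered its distances to them. The body start came to lie 140 kb from the telomeric flank (375 kb in the wild-type) and 390 kb from the centromeric flank (155 kb). The telomeric flank rose to 1.45 (1.44 to 1.46; distance 1.24), with 1.57 in the promoter-side and middle stretches and 1.251 at the 3′ end. Its gradient went from 1.29 to 0.995 (distance 0.71). The centromeric flank was at 0.761 (distance 0.83) and its edge at 0.675 (0.656 to 0.695; distance 0.77). All 33 bins were below 1 for the edge, from 0.48 in bin 11 to 0.93 in bin 28. The 3′-end stretch, which came closer to the edge, was at 0.761 where distance gave 1.10. Its O/E with the edge, which uses reference distances, was the highest of the 3 stretches (1.75 in *Inv2*, 2.35 in the wild-type). The *Inv2* gradient with the edge was 1.44 (1.37 to 1.52), and distance in the inverted order gave 1.42. In read pairs without bin factors the body was at 0.610 with the edge and 2.07 with the *Fgf8* end.

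**Figure D4:**
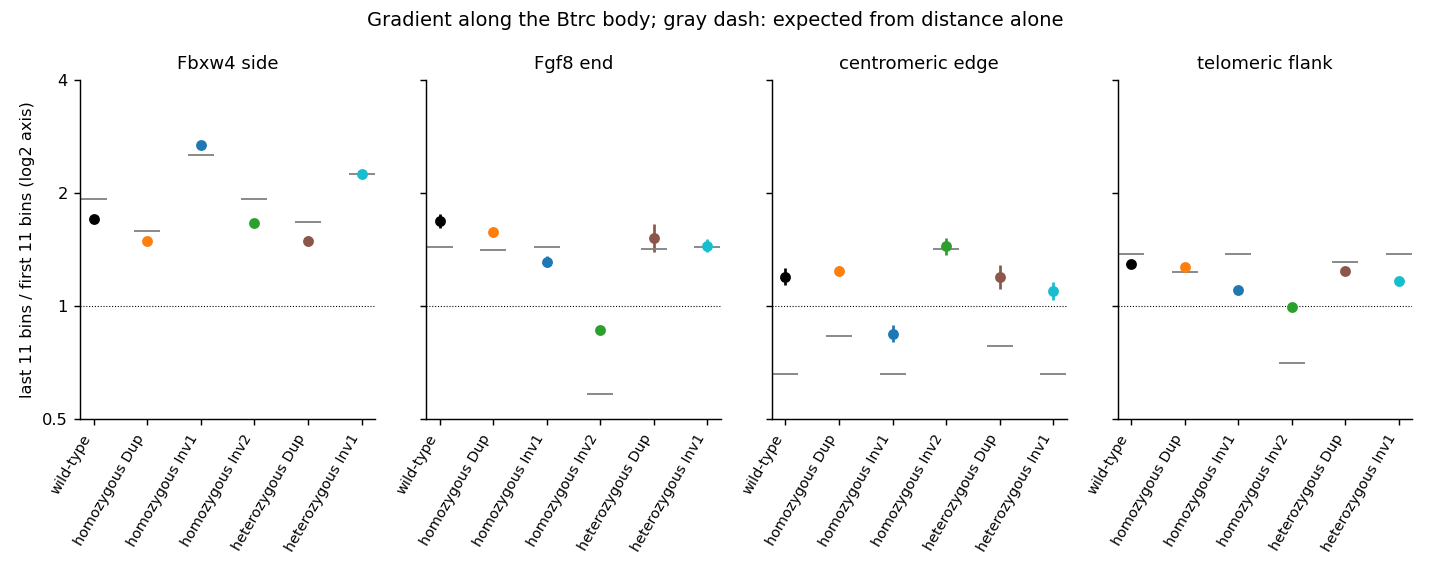
Gradient along the body, as contact of the last 11 over the first 11 bins, for the 6 maps and 4 partner regions on a log2 axis. Points are the maps with 95% counting intervals, and gray dashes mark distance alone. Homozygous *Inv1* has the steepest gradient with the *Fbxw4* side and the only gradient below 1 with the centromeric edge (0.845), and *Inv2* has the only one below 1 with the *Fgf8* end (0.861).

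In homozygous *Dup*, the ratio to the wild-type for the *Fgf8* TAD fell along the body from its promoter side to its 3′ end. The values from distance alone fell as well. The deposited *Dup* map keeps the copy number of the duplicated bins, so its O/E levels cannot be set beside those of the wild-type, and ratios were taken after its bins had been balanced to equal totals. The ratio was 1.23 (1.22 to 1.24; distance 1.04) for the body. It was 1.34 in the promoter-side, 1.23 in the middle and 1.16 in the 3′-end stretch, where distance gave 1.17, 1.06 and 0.97. As deposited, with both copies counted, the contact of the body was 2.62 times that of the wild-type. The gradient was 1.44 (1.43 to 1.46), below 1.63 in the wild-type and close to the 1.46 that distance gives over all copies. Of the body bins, 15 of 33 were more than 25% higher, against 48.3% of all bins outside the *Fgf8* TAD, so the share is near the background, and none passed 1.5.

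*Fgf8* was left out of the duplication, and the *Fgf8* end was at 0.960 (0.940 to 0.981; distance 0.80) in homozygous *Dup*, with 1.04 on the promoter side and 0.936 at the 3′ end. In read pairs, which keep both copies, it was 1.38. The centromeric edge, which was duplicated, was at 1.03 (distance 1.22) and kept its gradient (1.24 against 1.20). Both flanks were at 1.14 (centromeric) and 1.12 (telomeric), but at 0.998 and 0.983 under scaling to the total only. In the most distant centromeric windows the ratio reached 1.65 at chr19:44610001-44695000. Distance alone, passed through the same scaling, gave 1.88 there.

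For contact with the whole *Fgf8* TAD, both heterozygotes lay between the wild-type and their homozygote. This did not hold for every partner, as heterozygous *Inv1* was at 1.05 with the telomeric flank (homozygous 1.01) and heterozygous *Dup* at 1.19 with the telomeric flank (homozygous 1.12). With the *Fbxw4* side, heterozygous *Dup* was at 1.259 (1.240 to 1.279) and the homozygote at 1.246 (1.232 to 1.260), with overlapping intervals. Heterozygous *Dup* was above the homozygote in the 3′-end stretch (1.215 against 1.167). It was not above it in the promoter-side (1.364 against 1.366) and middle stretches (1.236 against 1.259). With the *Fgf8* side of the TAD, heterozygous *Dup* was at 1.090 and the homozygote at 1.204. Heterozygous *Inv1* was at 1.39 (1.38 to 1.41) with the *Fgf8* TAD, where an equal mixture of a wild-type and an *Inv1* chromosome gave 1.42. The stretches stood at 1.27, 1.33 and 1.52 (mixture 1.26, 1.35 and 1.57), so the gradient was intermediate at 1.96 (1.93 to 1.99). Of the 33 bins, 28 were more than 25% higher, against 11% of all bins outside the TAD, and 15 lay above the mixture. No bin had its whole interval above the mixture and 6 had it below. Over the body it was 0.983 of the mixture, but 1.07 of it under scaling to the total only, so no side of the mixture can be given. At the centromeric edge the 3′-end stretch was at 0.804 (0.763 to 0.846), where the mixture gave 0.806.

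Heterozygous *Dup*, with 1 library and the fewest read pairs, was at 1.19 (1.17 to 1.20) with the *Fgf8* TAD against 1.11 for the mixture and 1.23 in the homozygote. Its promoter-side stretch was at 1.28 and its 3′-end stretch at 1.15, and its gradient was 1.45 (1.42 to 1.49). Of the 33 bins, 29 lay above the mixture, 16 of them with their whole interval, and 8 were more than 25% higher, against 22.9% of all bins outside the TAD. An equal mixture is not exact here, since the duplicated chromosome carries more copies of the body. As deposited, the contact was 1.87 times that of the wild-type.

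**Figure D5:**
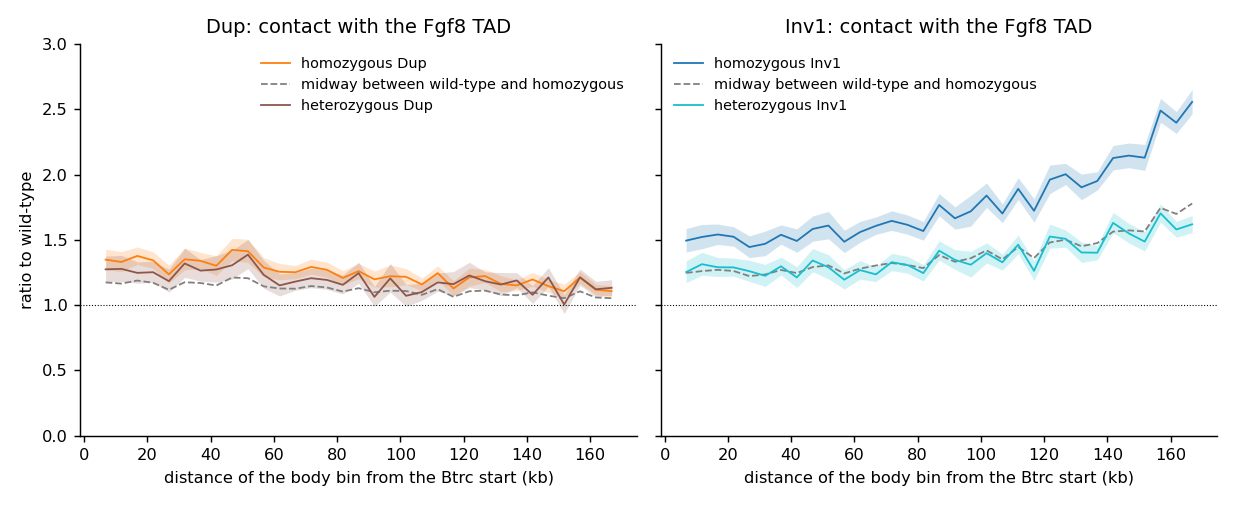
Ratio to the wild-type of the contact of each body bin with the *Fgf8* TAD against the distance from the *Btrc* start in kb, for homozygous and heterozygous *Dup* and *Inv1*, with 95% counting intervals. The dashed line lies midway between the homozygote and 1. Heterozygous *Inv1* lies near it (15 of 33 bins above), and heterozygous *Dup* lies above it in 29 of 33 bins.

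The body and the other parts of the *Lbx1* TAD had unlike ratios in the mutants, and the ratios from distance alone differed between them as well. In *Inv1*, the ratio with the *Fgf8* TAD was 1.83 in the body, 1.41 at the *Btrc* promoter and 1.33 in the upstream segment. Distance gave 1.30, 1.12 and 1.08, and the ratios divided by these were 1.41, 1.27 and 1.23. The body was 1.30 times (1.24 to 1.36) the promoter and 1.38 times (1.36 to 1.40) the upstream segment. With the centromeric edge the body was at 0.773, against 0.991 (0.858 to 1.14) at the promoter and 0.969 (0.935 to 1.00) in the upstream segment, and thus at 0.781 (0.675 to 0.904) and 0.799 (0.763 to 0.835) of these. *Inv2* gave the reverse order, with 1.90 for the *Fgf8* end in the body, 2.61 at the promoter and 4.15 in the upstream segment. Distance gave 1.35, 2.81 and 6.90, in the same order as these ratios. Divided by distance, the body was highest, at 1.41 against 0.932 at the promoter and 0.602 in the upstream segment. Over the whole *Fgf8* TAD the *Inv2* body differed from the upstream segment (0.762 of it, 0.751 to 0.774). Its ratio to the promoter, 0.963 (0.919 to 1.01), had an interval that holds 1. Distance gave 1.04 in the body, 1.21 at the promoter and 1.70 in the upstream segment. In *Dup* the ratios with the *Fgf8* TAD were 1.23, 1.31 and 1.33, and the body was 0.941 (0.899 to 0.984) of the promoter.

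Of the shares of contact outside the *Lbx1* TAD, the *Fgf8* TAD took 35.8% in homozygous *Inv1*, 30.3% in heterozygous *Inv1* and 25.1% in *Inv2*, against 23.2% in the wild-type. In the *Dup* maps, where the duplicated partners keep their copies, it took 32.0% (homozygous) and 27.4% (heterozygous). The *Inv1* gain was larger at the 3′ end (44.5% against 24.9% in the wild-type) than in the promoter-side stretch (27.1% against 20.8%). In *Inv2*, the telomeric flank took the largest share, 38.5%, and the centromeric flank the lowest of the 6 maps, 26.8%.

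The start bins of the genes around the locus show how contact of the body with its neighbours differed between the maps. In the wild-type, *Fgf8* had an O/E of 1.24 and *Fbxw4*, whose start bin lies at the telomeric *Inv1* cut, 0.80. *Poll*, a DNA repair polymerase, and *Dpcd* share a start bin and had 0.80. Among the centromeric genes the highest were *Tlx1*, a homeobox gene, at 0.99, *Kazald1* at 0.98 and *Hif1an*, the asparagine hydroxylase that restrains HIF, at 0.97. On the telomeric side they were *Npm3*, a histone chaperone of the nucleoplasmin family and the neighbour of *Fgf8*, at 1.31, and *Ldb1* and *Pprc1*, which share a bin, at 1.14. *Lbx1* lies in the TAD of the body and is no member, with 1.74.

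In *Inv1*, *Fbxw4* was the 1 of 31 protein-coding genes whose start bin was more than 25% higher (3.51, 3.31 to 3.73; distance 3.56). None was more than 20% lower, against 7.1% of partner bins higher and 6.79% lower. The telomeric cut splits the start bin of *Fbxw4*. The *Fbxw4* start itself lies past the cut and stayed 125 kb from the body end, as in the wild-type. Only the part of the bin before the cut moved, so its value cannot be assigned to the *Fbxw4* start. *Fgf8* was at 0.868 (0.830 to 0.909). *Poll* and *Dpcd* were at 1.03 although the inversion moved them away and distance gave 0.57. The next largest values were *Kcnip2*, a subunit of potassium channels, at 1.05 (0.976 to 1.13) and *Pitx3*, a homeobox gene, at 1.04 (0.901 to 1.19), whose intervals hold 1. The smallest were *Hif1an* at 0.804, *Sec31b*, a COPII coat gene, at 0.839 and *Tlx1* at 0.845. *Lbx1* was at 0.804 and 0.52 in *Inv1* and *Inv2*.

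In *Inv2*, *Fgf8* was highest at 1.77 (1.70 to 1.84; distance 1.33), followed by *Npm3* at 1.70 and *Mgea5*, which encodes the enzyme that removes O-GlcNAc from proteins, at 1.66. In all, 10 of 31 genes were more than 25% higher, 9 of them among the 12 of the telomeric flank, against 28.1% of partner bins, so the share over all genes is near the background. More than 20% lower were 5 of the 15 centromeric genes, which is 5 of 31 in all against 26.9% of partner bins, with *Tlx1* at 0.716 (0.664 to 0.772; distance 0.80), *Kazald1* at 0.723 and *Hif1an* at 0.774. *Fbxw4* was at 1.15 and *Poll* and *Dpcd* at 1.01.

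In *Dup*, 11 of 31 genes were more than 25% higher, a lower share than the 49.7% of partner bins, and none was more than 20% lower, against 0% of partner bins. The largest were the distant centromeric *Scd1*, a fatty acid desaturase, at 1.70 (distance 1.95), *Wnt8b*, a Wnt ligand, at 1.68 (1.89) and *Ndufb8*, a subunit of respiratory complex I, at 1.65 (1.89), all below distance alone. *Fbxw4* was at 1.29 (1.21 to 1.37; distance 1.11), *Poll* and *Dpcd* at 1.10 and *Fgf8* at 0.965 (0.924 to 1.01; distance 0.78). The smallest were *Npm3* at 0.933, *Tlx1* at 0.937 and *Hps6*, a gene of lysosome-related organelles, at 0.953.

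The bin of *Gm6807* had a wild-type O/E of 0.76 with the *Fgf8* TAD and 2.02 with the centromeric edge, where the medians of the 33 bins were 0.79 and 2.01. Its wild-type contact with the *Fgf8* TAD, 9.22 (8.85 to 9.61) at a map total of 1000000, was below that of the adjacent bin 16 at 10.4 (9.99 to 10.8), and its interval overlapped that of bin 18 at 9.71 (9.29 to 10.2). In *Inv1* its ratio with the TAD was 1.77 (1.68 to 1.85), above 1.57 in bin 16 and with an interval that overlaps that of bin 18 at 1.67 (1.58 to 1.75). With the centromeric edge its *Inv1* ratio was 0.838 (0.726 to 0.968), and with the TAD and the edge in *Inv2* it was at 1.34 (1.27 to 1.41) and 0.607 (0.518 to 0.711).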

How the data were processed

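Fore- and hindlimb buds were cross-linked, digested with DpnII, religated and captured with SureSelect probes. The authors mapped reads with HiCUP and Bowtie2 2.4.2 on mm9, merged replicates and deposited contact signal at 5 kb, per the submitters' processing notes with Juicer 1.19.02. The deposited signal of the wild-type and inversion maps is KR normalized, which gives every bin the same total, so gains of a bin lower its other values. The *Dup* maps are LOIC normalized and keep copy number. Reads were mapped to the reference order. The 3 deposited subtraction maps hold the authors' own comparison and were not used.

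Analyses ran in Python 3.11.15 with the packages numpy 2.4.6 and scipy 1.17.1, and figures were drawn in matplotlib 3.10.9. Dividing out a factor per bin gave whole read pairs for 100% of values (within 0.01), which set the 95% counting intervals (z of 1.96; Wilson for shares of signal). For ratios, *Dup* maps were balanced, each distance of both maps was scaled to their mean with factors from bin pairs outside the rearranged interval, and totals were set to 1000000. The distance expectation is the wild-type decay in the rearranged order through the same steps. A bin was counted as higher or lower past 25% above or 20% below the wild-type, the same fold. O/E uses reference distances. Alternatives were total-only scaling, other scaling factors, read pairs without factors, trimmed regions, medians, LOIC values and a fold of 1.5. Steps were tested on simulated maps.

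The genes named were *Btrc*, *Gm6807*, *Lbx1*, *Poll*, *Dpcd*, *Fbxw4* and *Fgf8*, the 3 protein-coding genes per flank with the highest wild-type O/E, and per homozygous mutant the 3 with the largest and the 3 with the smallest ratio. A symbol annotated more than once in a bin was counted once. Members, regions, lists and tests were chosen with earlier results of these data known. Gene positions are from the GENCODE annotation of mm9.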

Additional observations from a re-analysis of the deposited data

How the results depend on the processing

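No paired analysis was possible because the replicates were merged into 1 map per genotype, and for the same reason no replicate could be left out. Order below is homozygous *Dup*, *Inv1* and *Inv2*, then heterozygous *Dup* and *Inv1*, and the cause of a shift was not tested unless the alternative itself gives it. The gradient with the *Fgf8* TAD lay above 1 in all 6 maps, except after division by the mean at the same distance, where it was 0.967 in the wild-type, 0.876, 1.253 and 0.867, then 0.901 and 1.10. With 2 bins trimmed from the ends of both regions it was 1.53 in the wild-type, 1.36, 2.08 and 1.37, then 1.37 and 1.85. As a median over bin pairs it was 1.60 (wild-type), 1.42 (*Dup*) and 1.58 (*Inv2*), and in read pairs without bin factors 1.71 (wild-type), 1.54 (*Dup*), 1.36 (*Inv2*) and 2.04 (heterozygous *Inv1*).

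The ratio of the body with the *Fgf8* TAD was above 1 under every alternative run. It was 1.26, 1.86, 1.23, 1.21 and 1.41 with trimmed regions, 1.20, 1.78, 1.31, 1.16 and 1.38 with scaling factors from all bin pairs, and 1.22 (*Dup*), 1.93 (*Inv1*) and 1.56 (heterozygous *Inv1*) with scaling to the total only. As deposited and in read pairs, which keep copy number, *Dup* was at 2.62 and heterozygous *Dup* at 1.87, and *Inv2* was at 1.32 in read pairs. An alternative chosen after seeing the data, which left out of the factors only pairs with both bins in the interval, gave 1.24, 1.79 and 1.33, and 1.38 in heterozygous *Inv1*. At a fold of 1.5, 7 bins passed in heterozygous *Inv1* and 0 in both *Dup* maps and in *Inv2*, with no share over all bins taken at this fold. Shares of the *Fgf8* TAD counted in read pairs were 24.1% (wild-type), 33.3%, 37.1%, 27.0%, 28.3% and 31.5%.

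Scaling to the total only moved the flanks. The centromeric flank was at 0.998, 0.999, 0.822, 1.11 and 1.04, the telomeric flank at 0.983 (*Dup*), 1.20 (*Inv1* and heterozygous *Inv1*) and 1.58 (*Inv2*), and the interval between the TADs at 0.798 (*Inv1*), 1.00 (heterozygous *Dup*) and 0.955 (heterozygous *Inv1*). The heterozygotes over their mixtures were then at 1.08 (*Dup*) and 1.07 (*Inv1*, from 0.983). Values for the *Fgf8* end, also added after seeing the data, passed 1 in *Inv1* (1.03 with scaling to the total only, 1.02 in read pairs), in heterozygous *Inv1* (1.08 and 1.05) and, in read pairs, in *Dup* (1.38 for the body and for its last 11 bins).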
